A study of Mus musculus with 88 samples.

Results

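The genes described here are 36 genes of DNA replication and nucleotide synthesis, chosen by name for their place in the replication machinery, with earlier results of these data known. They were measured among 18069 genes on 88 one-colour oligonucleotide arrays of total RNA from 4 mouse tumours grown as transplants in the hind leg of C3H/HeNrs mice. NR-S1 and SCCVII are labelled as spontaneous SCC (squamous cell carcinoma) of the C3H/He mouse, NFSa as a spontaneous fibrosarcoma and #8520 as a radiation-induced fibrosarcoma. Each tumour has a carbon-ion series, with untreated tumours and tumours taken 6 h, 1 day and 3 days after 30 Gy, and a gamma-ray series with its own untreated tumours and the same times after 30 Gy and after 50 Gy. Each of the 44 groups holds 2 arrays, with 32 arrays in the carbon-ion series and 56 in the gamma-ray series, with 16 untreated arrays in all. The labels give no genotype beyond the strain, and no age. They do not say if paired arrays of 1 group hold RNA of different mice, and the p-values below therefore measure no more than the spread between these arrays.

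Of the 36 genes, 33 had a probe that names them alone and 31 passed the filter on dim and often missing probes. No probe carried the symbol of Gins1 (a subunit of the GINS complex of the replicative helicase) or Rfc3 (a subunit of the clamp loader). The probe of Tyms, thymidylate synthase, is shared with its pseudogene Tyms-ps and was not used. Gins2 was too dim (mean log2 intensity -2.57) and Rpa1, the large subunit of the single-strand binding protein RPA, had a value on 41 of 88 arrays, so both were left out of the tests. All levels below are log2 intensities of 1 probe per gene, and all changes are differences of such values within a tumour and a series, averaged with equal weight over the 4 tumours unless a tumour is named. Levels of different probes cannot be set against each other.

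DNA is copied once per cell cycle, in S phase. Origins are licensed in G1 when ORC, Cdc6 and Cdt1 load the ring of Mcm proteins, the core of the replicative helicase. Cyclin E with its kinase then helps to fire origins, Cdc45 and GINS complete the helicase, the polymerases copy both strands around the sliding clamp Pcna, and ribonucleotide reductase and thymidine kinase supply the deoxynucleotides. Many of these genes are targets of the E2F transcription factors, which the retinoblastoma protein holds in check in resting cells, so their RNA follows the share of cells in G1 and S phase in proliferating tissue. In whole tumours, fewer proliferating cells and less RNA of these genes per cell cannot be told apart.

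The promoters of these genes were searched for letters that E2F is known to bind. In the RefSeq promoter windows of GRCm38.p6, which run from 250 bases before to 50 bases after an annotated start of a gene, 30 of the 36 genes had an entry. Some genes have several windows (32851 in all), and a match in any of them counted. The 8 letters TTTCGCGC or TTTGGCGC, on either strand, stood in 11 of these 30 (36.7%), namely Orc1, Cdt1, Mcm3, Mcm5, Mcm6, Mcm7, Pola1, Pole2, Rfc3, Lig1 and Uhrf1. They stood in 251 of all 27025 genes of the table (0.929%). The stretches around the matches in 5 of the 11 are shown because they cover a licensing factor, helicase subunits, a polymerase and a chromatin factor that recur in the results. Those of Orc1, Pola1 and Uhrf1 lie inside the annotated span of their gene, where another transcript starts earlier. Capitals mark the searched letters or their reverse complement, which overlap on both strands in Mcm5 and in the first match of Mcm6. Each is printed 5′ to 3′ on the gene's strand, at chr4:108579416-108579445 (plus strand) for Orc1, chr8:75109332-75109391 (plus) for Mcm5, chr1:128359721-128359839 (minus) for Mcm6, chrX:93632275-93632304 (minus) for Pola1 and chr17:56304117-56304146 (plus) for Uhrf1.
Orc1: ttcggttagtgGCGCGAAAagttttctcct
Mcm5: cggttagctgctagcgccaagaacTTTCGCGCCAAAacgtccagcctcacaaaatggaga
Mcm6: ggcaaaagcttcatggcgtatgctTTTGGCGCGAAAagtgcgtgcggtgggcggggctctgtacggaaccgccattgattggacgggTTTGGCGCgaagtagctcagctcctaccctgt
Pola1: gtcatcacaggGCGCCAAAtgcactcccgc
Uhrf1: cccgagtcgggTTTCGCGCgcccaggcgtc
The CCAAT box, searched as CCAAT on either strand, was in a window of 18 of the 30 genes (60%) against 41.1% of all genes. The CHR element of mitotic genes, searched as TTTGAA on either strand, was in 3 of the 30 (10%), in Mcm2, Cdc45 and Fen1, against 20.2% of all genes. Among 27 genes with a window from a list of mitosis and spindle genes used below for comparison, the order was the other way round: 1 (3.7%) held the E2F letters and 19 (70.4%) held TTTGAA. A match is a description of letters and not of binding, and no p-value was computed for these shares.

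The 88 arrays had median intensities of 1.02 to 1.07. Paired arrays had correlations of 0.990 to 0.998 across the genes tested. The log2 difference between paired arrays had an SD over the tested replication genes with a median of 0.171 (0.0927 to 0.359). The dimmest spots read higher on 8 arrays, those of SCCVII and #8520 at day 1 and day 3 after 50 Gy. The first percentile of intensity was 0.297 to 0.378 on these, against 0.0128 to 0.134 on the other 80. Some of the results at those points, but not all, are therefore also given without these tumours. The keratin Krt5 had a mean log2 intensity of 8.38 in untreated NR-S1 but of -1.62 in SCCVII, -1.70 in NFSa and -1.96 in #8520. The other tested keratinocyte markers also read highest in NR-S1, except Lgals7 (5.21, 4.86, 5.22 and 5.16 in the same order). Apart from Lgals7 these markers thus set NR-S1 apart and not SCCVII, although both are labelled SCC.

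Carbon ions lowered the replication genes within 6 h, in all 4 tumours. All 31 tested genes were lower at 6 h over the 4 tumours (adjusted p under 0.05) in limma's test, where 19.5% of all genes tested were called lower. Their median change was -0.47 and they ranged from -0.95 to -0.22, against a median of -0.01 over all genes. At day 1, 29 of 31 were lower (background 16.6%), with a median of -0.36, and at day 3 all 31 were lower (background 41.8%), with a median of -1.22 and a range of -1.49 to -0.39. The 3 times share the same untreated arrays. A drop of at least 1.5-fold was reached by 11 of the 31 at 6 h (1.29% of all genes), 3 at day 1 (0.827%) and 30 at day 3 (6.88%), all but Lig1. No gene was called higher at any of the 3 times in limma's test, nor at an unadjusted p under 0.05 (0 of 31, backgrounds 21%, 25.5% and 26.4% of all genes). The heat map of changes shows this sequence gene by gene.

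**Figure D1:**
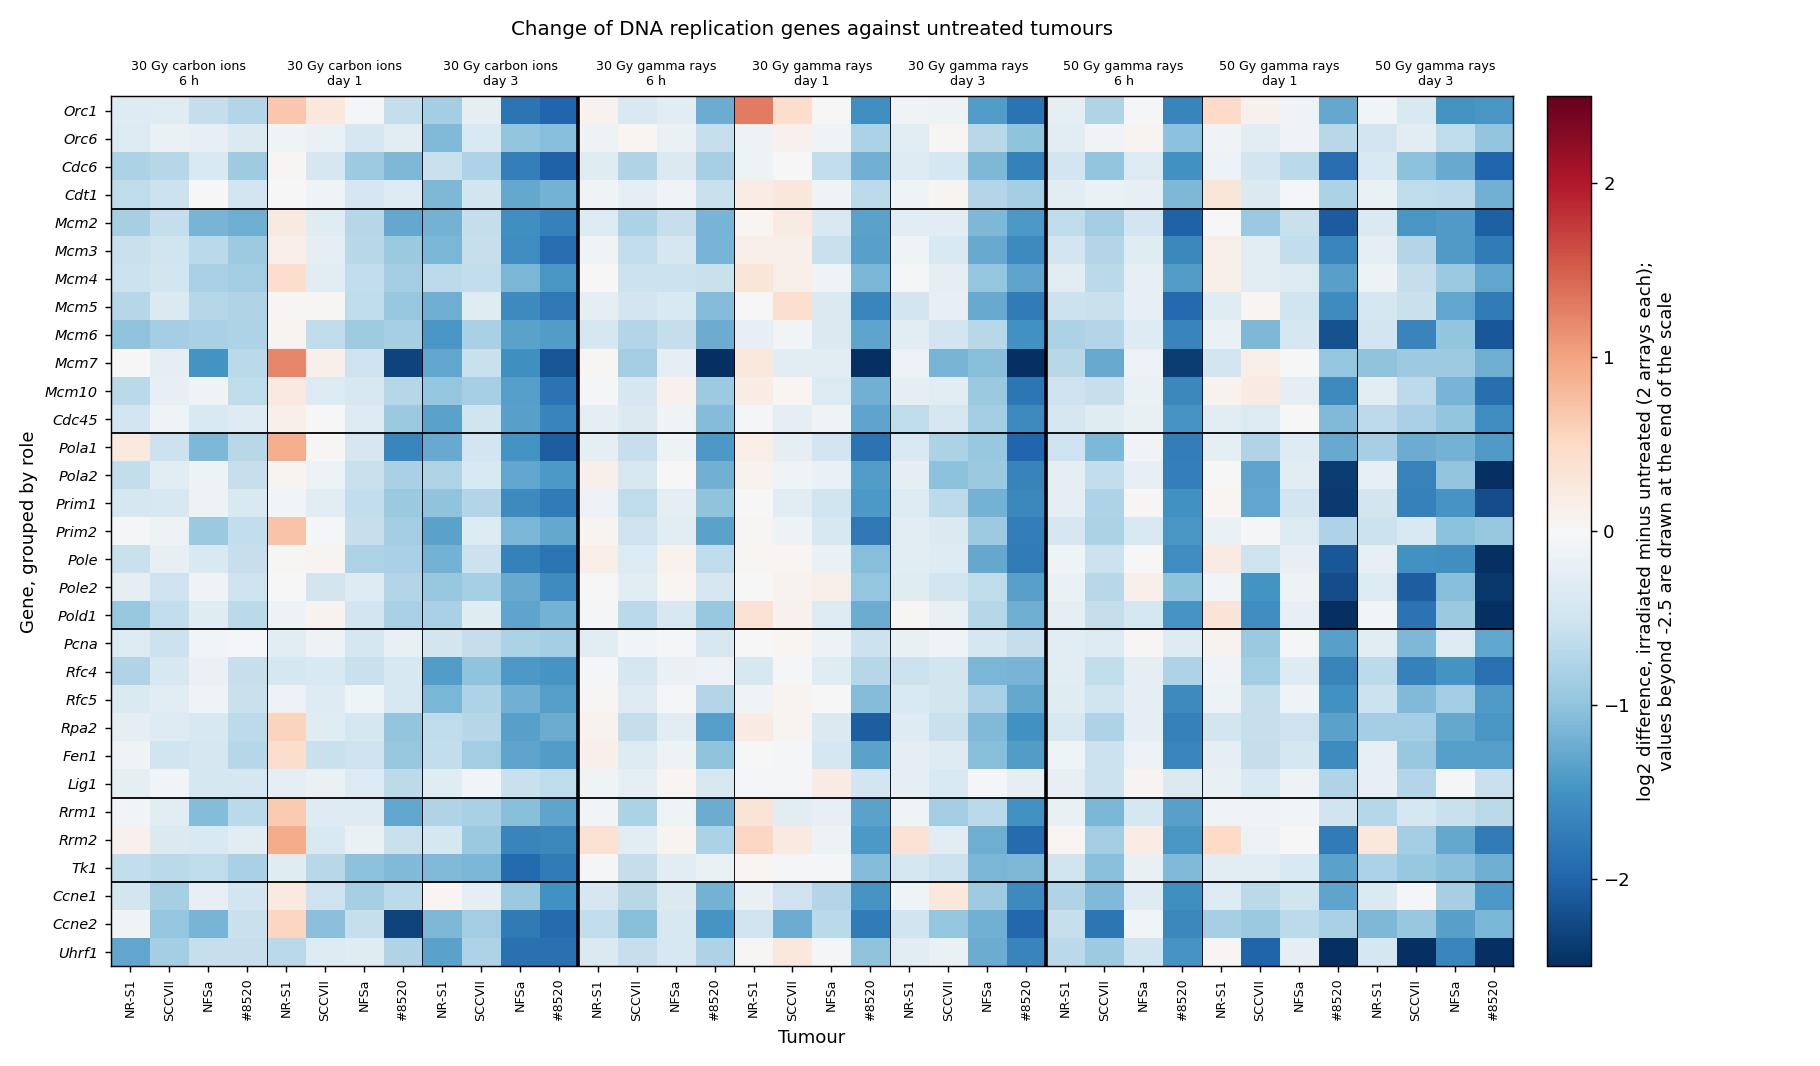
Log2 change against untreated arrays of the same tumour and series for the 31 tested replication genes (rows, grouped by role) in each tumour, beam, dose and time (columns), each cell the mean of 2 arrays minus the mean of 2, with values beyond -2.5 drawn at the end of the colour scale. Blue fills nearly all cells at day 3 after carbon ions, where 30, 28, 31 and 31 genes were called lower in NR-S1, SCCVII, NFSa and #8520, while the NR-S1 column at day 1 after carbon ions is mixed, with 10 genes called higher and 2 lower.

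Both irradiated arrays lay below both untreated arrays in each of the 4 tumours for 20 of the 30 genes with all values at 6 h after carbon ions, where 4.19% of all genes did so. At day 1 this held for 2 of 28 (background 1.9%), Tk1 and Uhrf1, and at day 3 for 28 of 30 (background 13.5%), all but Lig1 and Ccne1. When each tumour was taken as 1 replicate, so that the test asks whether the 4 tumours moved alike, 9 of the 31 were lower at 6 h (1.18% of all genes were) in limma's test, 0 at day 1 (0% of all genes) and 28 at day 3 (7.16%). At an unadjusted p under 0.05 the numbers were 29 (7.39% of all genes), 10 (3.94%) and 31 (19.2%).

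The licensing factors fell together at 6 h and day 3 but parted at day 1. Cdc6, which brings the Mcm ring to the origin, read 3.54 and 3.53 on the untreated NR-S1 arrays, 4.78 and 4.73 in SCCVII, 4.49 and 4.24 in NFSa and 4.55 and 4.46 in #8520. At 6 h it read 2.69 and 2.81, 3.99 and 4.09, 4.04 and 3.94, and 3.53 and 3.69 in the same order. At day 3 it read 3.01 and 2.96, 3.92 and 4.05, 2.61 and 2.70, and 2.44 and 2.51. Every irradiated array of a tumour at these times lay below both of its untreated arrays, while at day 1 the NR-S1 arrays (3.66 and 3.47) lay on both sides of them. The change of Cdc6 was -0.69 (SE 0.0669, adjusted p = 1.0e-12) at 6 h, -0.61 (SE 0.0669, adjusted p = 5.9e-11) at day 1 and -1.27 (SE 0.0669, adjusted p = 2.0e-23) at day 3. Orc1, the largest subunit of the origin recognition complex, changed by -0.49 at 6 h and -1.22 at day 3 but read 0.08 (SE 0.112, adjusted p = 0.62) at day 1. Cdt1, the partner of Cdc6 in loading the ring, fell by 0.42, 0.21 and 1.01 at the 3 times, and Orc6, the smallest subunit of the origin complex, by 0.27, 0.24 and 0.89.

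The helicase genes had the deepest early drop among the roles with more than 3 genes. Over 8 genes their medians at the 3 times were -0.65, -0.37 and -1.25, next to -0.45, -0.22 and -1.12 for the 4 licensing factors. Mcm2, a subunit of the ring, was the gene with the largest change at 6 h, 1.93-fold lower (log2 change -0.95, SE 0.0511, adjusted p = 2.8e-22). Over the 8 untreated arrays of the carbon-ion series it ran from 2.47 through a median of 3.22 to 3.45, at 6 h from 1.60 through 2.16 to 2.57, at day 1 from 2.14 through 2.60 to 3.01, and at day 3 from 1.29 through 1.72 to 2.59. The ranges of untreated and 6 h arrays overlapped only across tumours, since NR-S1 began lowest (2.47 and 2.49) and SCCVII ended highest (2.56 and 2.57). In NR-S1 Mcm2 was back at 2.65 and 2.76 at day 1, above both untreated arrays, before it read 1.29 and 1.30 at day 3.

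The other subunits of the ring followed Mcm2. Mcm6 fell by 0.86 at 6 h (SE 0.0762, adjusted p = 6.4e-14), Mcm4 by 0.67, Mcm3 by 0.66, Mcm5 by 0.64 and Mcm7 by 0.60. At day 3 Mcm7 led them at -1.39 (SE 0.0813, adjusted p = 1.7e-21), followed by Mcm3 at -1.29, Mcm2 at -1.25, Mcm6 at -1.25, Mcm5 at -1.23 and Mcm4 at -0.97. Mcm10 and Cdc45, which join the ring when origins fire, changed less at 6 h (-0.40 and -0.33) and as much as the ring at day 3 (-1.25 and -1.22). Whether the early changes of these 2 groups differ was not tested. Gins2, left out of the tests because it was dim, differed by -0.55, -0.43 and -0.82 at the 3 times.

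The polymerase and primase genes had medians of -0.43, -0.36 and -1.15 over 7 genes. Pola1, the catalytic subunit of polymerase alpha that extends the primers, had a value on 7 of 8 untreated arrays of the carbon-ion series, 1 NR-S1 array being missing. These 7 ran from 0.44 through a median of 1.35 to 1.99, and the 8 arrays at day 3 from -0.79 through -0.14 to 0.47. The highest day 3 array (0.47) and the lowest untreated array (0.44) both belong to SCCVII, and in each of the other tumours the day 3 arrays lay below the untreated ones. Pola1 fell by 0.53 at 6 h, 0.28 at day 1 and 1.32 at day 3 (SE 0.0839 each). Pold1, the catalytic subunit of the lagging-strand polymerase delta, fell by 0.63 at 6 h, the largest early drop in this role. Pole, the catalytic subunit of the leading-strand polymerase epsilon, fell by 1.31 at day 3 (SE 0.0485, adjusted p = 3.7e-30), and the primase subunits Prim1 and Prim2 by 1.27 and 1.02.

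The clamp, its loader and the enzymes that join Okazaki fragments included Lig1, the least changed gene at day 3. Over 6 genes their medians were -0.36, -0.32 and -1.02 in order of time. Rfc4, a subunit of the clamp loader, changed most among them. It read from 4.66 through a median of 5.05 to 5.28 on the 8 untreated arrays, from 4.19 through 4.53 to 4.77 at 6 h and from 3.06 through 3.65 to 4.13 at day 3. The day 3 arrays lay wholly below the untreated ones even across tumours, and the change was -1.33 (SE 0.06, adjusted p = 4.5e-26). Pcna, the clamp itself, ran from 6.51 to 7.35 untreated and from 5.62 to 6.58 at day 3, with changes of -0.24, -0.26 and -0.68. Lig1, the ligase that seals the fragments, ran from 1.19 to 1.69 untreated and from 0.86 to 1.58 at day 3, with changes of -0.30, -0.35 and -0.39. Fen1, the nuclease that trims the fragments, fell by 1.05 at day 3, and Rfc5 and Rpa2, subunits of the clamp loader and of RPA, by 1.12 and 0.98.

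Among the nucleotide enzymes, Tk1, the thymidine kinase of the salvage pathway, fell at every time over the 4 tumours. Untreated arrays read 4.32 and 4.22 in NR-S1, 4.62 and 4.77 in SCCVII, 4.73 and 4.69 in NFSa, and 4.57 and 4.83 in #8520. At day 1 the same tumours read 3.91 and 4.02, 3.99 and 4.02, 3.78 and 3.60, and 3.68 and 3.52. At day 3 they read 3.15 and 3.17, 3.48 and 3.62, 2.73 and 2.80, and 3.05 and 2.86. No irradiated array of Tk1 reached an untreated array, of any tumour, at day 1 or day 3. Its changes were -0.69, -0.78 and -1.49 (SE 0.0815 each), the last being 2.8-fold (adjusted p = 1.0e-22) and the largest of all 31 genes at that time. Within NR-S1 at day 1 alone the change was -0.30 (adjusted p = 0.14). Rrm1 and Rrm2, the large and small subunits of ribonucleotide reductase, fell by 0.52 and 0.22 at 6 h and by 0.98 and 1.16 at day 3, but Rrm2 read -0.04 (SE 0.0704, adjusted p = 0.65) at day 1.

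The cyclins E and Uhrf1, a chromatin factor that carries DNA methylation across replication to the new strand, had a median of -0.69, -0.51 and -1.42. Ccne2, cyclin E2, ran from -0.72 through a median of 1.02 to 1.75 untreated, from -0.76 through 0.03 to 1.19 at 6 h, from -0.67 through -0.36 to 1.02 at day 1 and from -1.82 through -0.30 to -0.19 at day 3. Its ranges overlapped across tumours at each time, and NR-S1 started far below the others, at -0.40 and -0.72. The changes were -0.69, -0.85 (SE 0.0654, adjusted p = 4.6e-16) and -1.42, against -0.49, -0.44 and -0.65 for its paralog Ccne1. Uhrf1 ran from 5.04 to 5.73 untreated and from 3.60 to 4.68 at day 3, so the groups did not overlap, and changed by -0.82, -0.51 and -1.46.

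**Figure D2:**
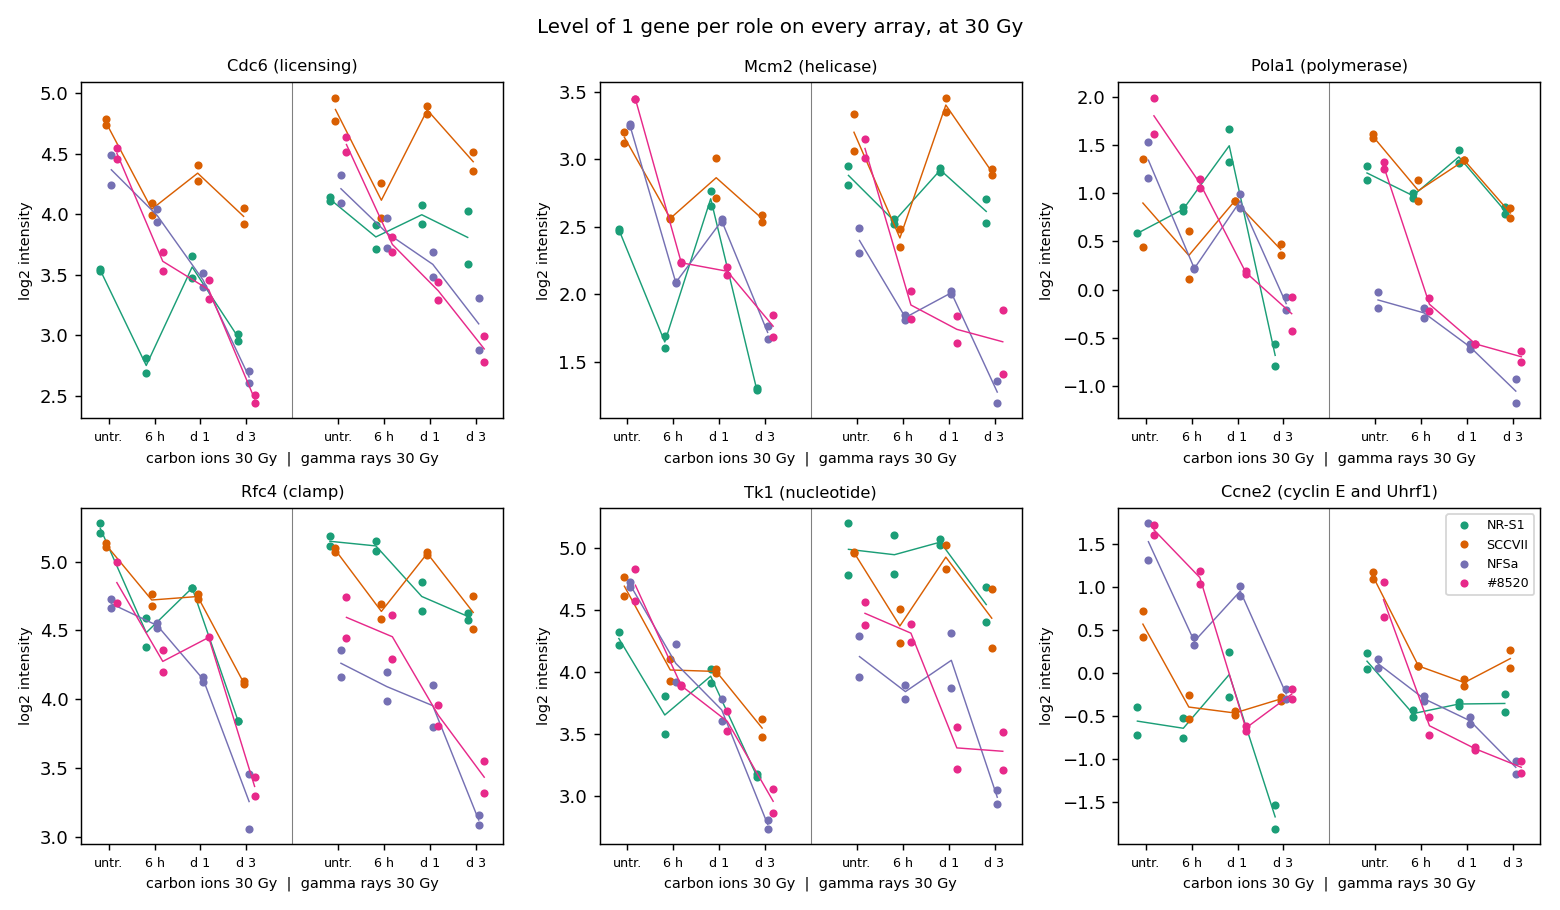
Log2 intensity of Cdc6, Mcm2, Pola1, Rfc4, Tk1 and Ccne2 on arrays of both series, by time (untreated, 6 h, day 1, day 3). Each panel holds the carbon-ion series on the left and the gamma-ray series at its lower dose on the right. Colours mark tumours, points mark arrays and lines run through the mean of the 2 arrays. After carbon ions Mcm2 dipped at 6 h to between 1.60 and 2.57 and reached 1.29 to 2.59 at day 3. Tk1 reached 2.73 to 3.62 at day 3 after carbon ions. In NR-S1 of the carbon-ion series both day 1 arrays of Tk1 (3.91 and 4.02) lay above both 6 h arrays and below both untreated ones.

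The tumours parted at day 1. There the median change after carbon ions was 0.07 in NR-S1, -0.29 in SCCVII, -0.51 in NFSa and -0.83 in #8520. In NR-S1, 10 of the 31 genes were higher (18.7% of all genes were) and 2 lower (16.4%), while 13 were lower in SCCVII (11.1%), 23 in NFSa (6.99%) and 30 in #8520 (18.5%). The 10 genes that rose in NR-S1 were Mcm7 (1.22, adjusted p = 2.4e-08), Rrm2 (0.93), Pola1 (0.91, against the single untreated array with a value), Prim2 (0.71), Orc1 (0.68), Rrm1 (0.65), Rpa2 (0.56), Ccne2 (0.54), Fen1 (0.45) and Mcm4 (0.44). The 2 that fell were Uhrf1 (-0.67) and Rfc4 (-0.43). At 6 h the tumours had lain close together, with medians of -0.46 (19 lower, background 15.2%), -0.40 (17 lower, 6.42%), -0.40 (21 lower, 12.2%) and -0.61 (29 lower, 18.2%) in the same order. At day 3 SCCVII stood apart with -0.60 (28 lower, 15.6%), against -1.10 in NR-S1 (30 lower, 42.1%), -1.36 in NFSa (31 lower, 28.1%) and -1.57 in #8520 (31 lower, 31.1%).

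A test of the difference between the 4 tumours, a moderated F test for each gene, passed for 13 of the 31 at 6 h (45% of all genes passed), 25 at day 1 (58.3%) and 29 at day 3 (61.9%). The members' share at 6 h was thus not above that of all genes. Mcm7 differed most at day 1. It read 1.22 and 0.75 untreated in NR-S1 and 2.26 and 2.17 at day 1, a rise, while in #8520 it went from 3.77 and 3.63 to 1.35 and 1.44. The changes were 1.22 in NR-S1, 0.12 in SCCVII, -0.51 in NFSa and -2.31 in #8520 (F = 82.7, adjusted p = 1.6e-17). The tumour with the highest untreated level thus had the lowest level at day 1. Ccne2 parted the same way at day 1, by 0.54, -1.04, -0.58 and -2.31 (F = 81.7, adjusted p = 2.0e-17), and so did Prim2, by 0.71, -0.02, -0.58 and -0.87 (F = 52.0, adjusted p = 8.3e-14).

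At 6 h the same 3 genes differed most between tumours, with hardly any change in NR-S1. Prim2 changed by -0.05, -0.12, -0.93 and -0.61 (F = 18.6, adjusted p = 5.2e-07), Mcm7 by -0.01, -0.25, -1.49 and -0.67 (F = 15.9, adjusted p = 2.8e-06) and Ccne2 by -0.08, -0.97, -1.16 and -0.56 (F = 13.4, adjusted p = 1.6e-05). At day 3 the order changed to Ccne1, which read 0.05, -0.21, -0.93 and -1.52 (F = 40.5, adjusted p = 2.5e-12), Mcm5, which read -1.22, -0.30, -1.59 and -1.80 (F = 36.4, adjusted p = 1.4e-11), and Pole, which read -1.19, -0.54, -1.69 and -1.83 (F = 36.3, adjusted p = 1.5e-11). Ccne1 was thus near its untreated level in NR-S1 and SCCVII at day 3 and far below it in both fibrosarcomas. Pcna and Rrm1 were the 2 genes whose day 3 change did not pass the test of a tumour difference.

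**Figure D3:**
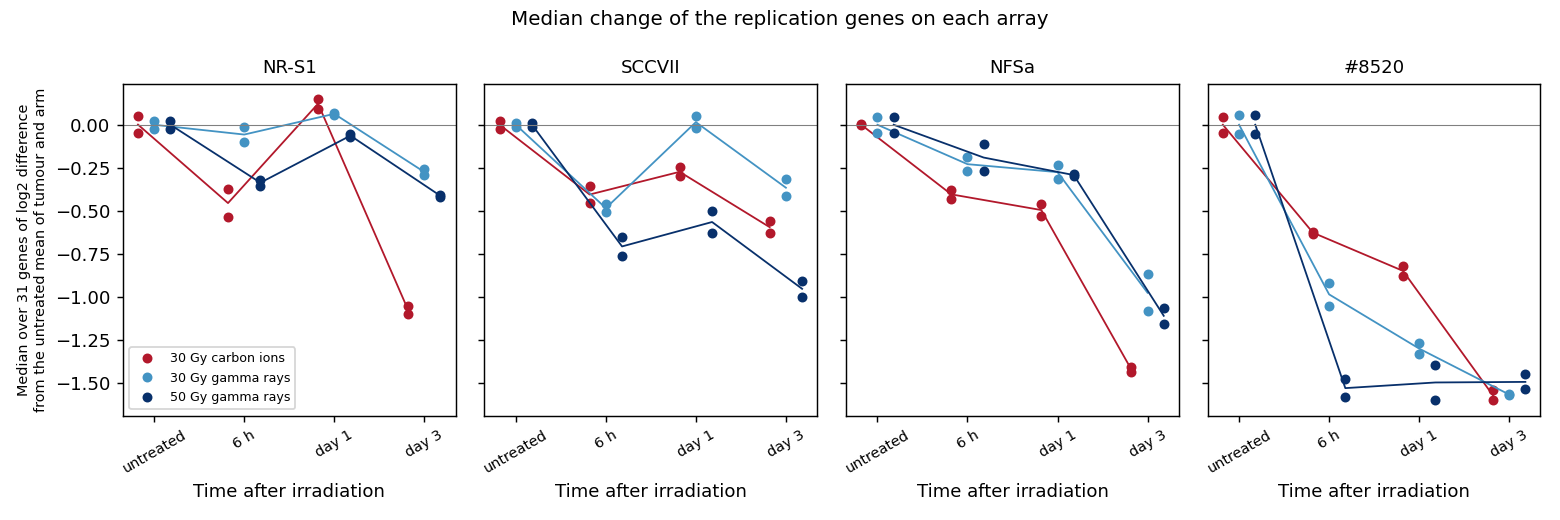
Median log2 change of the 31 tested replication genes on each array against the mean of the untreated arrays of its tumour and series, by beam, dose and time, in 1 panel per tumour, with points for arrays, lines through the mean of 2 arrays and the untreated gamma-ray arrays drawn for both gamma doses. After carbon ions the NR-S1 arrays sit at 0.15 and 0.09 at day 1 and at -1.05 and -1.10 at day 3, while the #8520 arrays fall at each step, to -1.60 and -1.54.

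From 6 h to day 1 after carbon ions, 14 of the 31 genes rose (background 20%) and 0 fell in limma's test (background 11.8%, 1 lower at an unadjusted p under 0.05), with a median difference of 0.10. The rise was largest in NR-S1, whose median was 0.69, next to 0.14 in SCCVII, -0.04 in NFSa and -0.20 in #8520, and without NR-S1 3 genes rose and 3 fell (shares of all genes not computed). Orc1 rose most, by 0.56 (SE 0.112, adjusted p = 6.8e-05), then Mcm2 by 0.44, Mcm4 by 0.34 and Uhrf1 by 0.31. Taking each tumour as 1 replicate, 0 of the 31 passed in limma's test, where 13 of all genes passed (2 of the 31 higher at an unadjusted p under 0.05, 3.52% of all genes). From day 1 to day 3, 30 of the 31 fell (background 45.3%) and 0 rose in limma's test (19.7%, 0 unadjusted), all but Lig1 (-0.04) falling, and Orc1 (-1.30), Rrm2 (-1.11), Pola1 (-1.04) and Mcm7 (-1.02) fell furthest, and 7 passed with each tumour as 1 replicate (0.768% of all genes).

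The mitosis and spindle genes gave another course over the same arrays. Of 33 on that list 31 were tested, and 30 were lower at 6 h after carbon ions (background 19.5%), with a median of -0.92. At day 1 their median was -0.03, with 6 higher (background 25.5%) and 6 lower (16.6%). From 6 h to day 1, 30 of the 31 rose (20%), by a median of 0.91 and in each tumour (1.09 in NR-S1, 0.73 in SCCVII, 0.75 in NFSa and 1.00 in #8520). In #8520 the replication genes thus had a median of -0.83 at day 1 where the mitosis genes had -0.22. At day 3 all 31 mitosis genes were lower again (background 41.8%), at -1.28. The difference between the 2 lists was not tested.

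**Figure D4:**
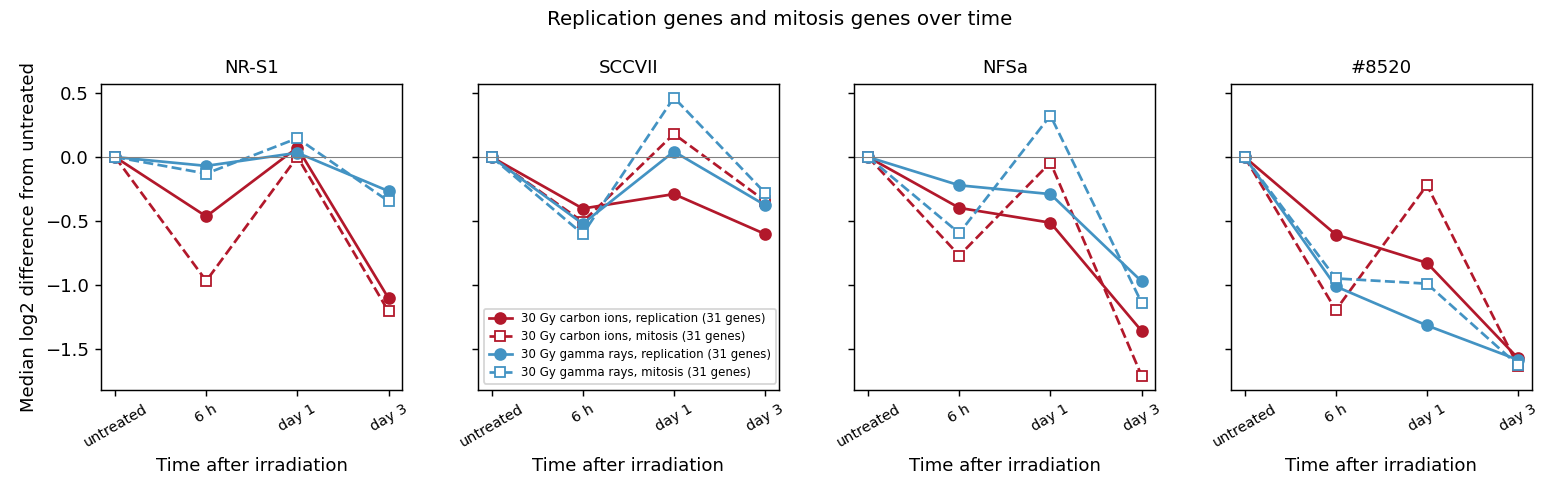
Median log2 change against untreated of the 31 replication genes and of the 31 mitosis and spindle genes, by time after 30 Gy, in 1 panel per tumour, with filled circles for replication, open squares for mitosis and 1 colour per beam. After carbon ions the mitosis median of #8520 goes from -1.20 at 6 h to -0.22 at day 1 while its replication median goes from -0.61 to -0.83, and they come together at day 3, at -1.63 and -1.57.

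Markers of some other cell types moved with the groups too. At day 3 after carbon ions all 13 tested T and NK cell markers were higher, with a summed intensity of 99.1 to 162.6 on the irradiated arrays against 13.1 to 57.7 untreated. Macrophage markers were higher for 11 of 13 and lower for 1 (875 to 1660 against 195 to 1045). Neutrophil markers were higher for 8 of 9, with sums that overlapped (17.6 to 550.3 against 16.0 to 127.5). The median sum of keratinocyte markers was 71.7 at day 3 against 68.5 untreated, and that of fibroblast and matrix markers 1155 against 1121. For skeletal muscle markers it was 497 at day 3 against 581 untreated. At 6 h 8 of 9 neutrophil markers (52.9 to 352.6 against 16.0 to 127.5) and 11 of 13 skeletal muscle markers were higher, and at day 1 all 13 muscle markers (686 to 1038 against 430 to 699). Of all genes 21%, 25.5% and 26.4% were called higher at 6 h, day 1 and day 3, and 41.8% lower at day 3. The part of these markers in the changes of the replication genes was not tested.

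Gamma rays at 30 Gy lowered the same genes, with tumour medians further apart at 6 h. At 6 h 30 of 31 were lower (background 18.4%), all but Rrm2 (-0.15), with a median of -0.46. At day 1 27 were lower (background 21.7%), with a median of -0.37, Orc1, Cdt1, Pcna and Lig1 not passing, and at day 3 all 31 were lower (background 30.9%), with a median of -0.81. With each tumour as 1 replicate none of the 31 passed at any of the 3 times in limma's test, where 11, 8 and 61 of all genes passed. At an unadjusted p under 0.05 15 were lower at 6 h (6.3% of all genes), 3 at day 1 (5.57%) and 27 at day 3 (12%). Without #8520 19 were called lower at 6 h and 7 lower and 2 higher at day 1 (shares of all genes not computed). Both irradiated arrays lay below both untreated arrays in all 4 tumours for 8 of 30 genes at 6 h (background 2.87%), 3 of 31 at day 1 (3.23%), which were Rfc4, Ccne1 and Ccne2, and 19 of 31 at day 3 (6.53%).

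The gamma-ray changes were largest in #8520. There the medians of the 3 times were -1.01 (29 lower, background 24.1%), -1.32 (31 lower, 27.2%) and -1.59 (30 lower, 30%). In NR-S1 the medians were -0.07 (5 lower, 8.48%, and 1 higher, 11.1%), 0.03 (2 lower, 12.6%, and 3 higher, 8.02%) and -0.27 (13 lower, 24.4%, and 1 higher, 12.6%), in SCCVII -0.52 (22 lower, 6.48%), 0.04 (2 lower, 8.02%, and 1 higher, 14%) and -0.38 (20 lower, 10.7%), and in NFSa -0.22 (10 lower, 5.53%), -0.29 (13 lower, 8.97%) and -0.97 (30 lower, 15.9%). The F test of a tumour difference passed for 23 of the 31 at 6 h (36.9% of all genes), 30 at day 1 (52.4%) and 29 at day 3 (56%).

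Mcm7 and Ccne2 led the gamma-ray changes at 30 Gy. Mcm7 in #8520 read 2.20 and 1.86 untreated, -0.54 and -0.41 at 6 h, -1.17 and -0.76 at day 1 and -0.58 and -0.75 at day 3. In NR-S1 it read 1.48 and 1.56 untreated and 1.49 and 1.61, 1.73 and 1.84, and 1.26 and 1.51 at the 3 times. All irradiated #8520 arrays lay below both untreated ones, while the NR-S1 arrays lay on both sides of theirs. Over the 4 tumours Mcm7 changed by -0.89, -0.83 and -1.27 (SE 0.0813 each) and Ccne2 by -0.89, -1.04 and -1.16 (SE 0.0654 each). Mcm6 (-0.75) and Mcm2 (-0.71) followed at 6 h, Ccne1 (-0.73) and Pola1 (-0.60) at day 1, and Pola1 (-1.03) and Pola2, the accessory subunit of polymerase alpha (-0.97), at day 3. Lig1 (-0.22) and Pcna (-0.33) changed least at day 3.

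By role, the 30 Gy gamma-ray medians at 6 h, day 1 and day 3 were -0.35, -0.15 and -0.67 for licensing, -0.56, -0.40 and -0.82 for the helicase, -0.50, -0.39 and -0.91 for the polymerases and -0.23, -0.32 and -0.75 for the clamp and fragment enzymes. From 6 h to day 1, 9 of the 31 rose (background 13.5%) and 1, Rfc4 (-0.16), fell (15.8%), a call lost in 8 of 16 fits with 1 array left out (-0.20 to -0.12). The rise was largest in SCCVII, at a median of 0.48, against -0.30 in #8520. Orc1 (0.51), Mcm2 (0.34), Uhrf1 (0.34) and Mcm6 (0.26) rose most. The NR-S1 arrays of Orc1 at day 1 read 2.05 and 3.996, and without the higher one, replicate 4, its rise was 0.26, with 0.75 without the other. Without NR-S1 the number of calls was 5 (share of all genes not computed). With each tumour as 1 replicate it was 0 in limma's test (0 unadjusted), where 0 of all genes passed. From day 1 to day 3, 27 fell (24.8%) and Ccne1 rose by 0.15 (15.5%), a rise that turned to -0.06 without SCCVII and whose call was lost in 6 of 16 fits with 1 array left out. Orc1 (-0.91), Uhrf1 (-0.64), Pole (-0.63) and Pola2 (-0.57) fell most, and 0 passed with each tumour as 1 replicate in limma's test (23 lower at an unadjusted p under 0.05, 9.65% of all genes). That fit called 0 of all genes. T and NK cell markers moved beside these genes, with 12 of 13 lower at 6 h (18.4% of all genes) and at day 1 (21.7%), and 7 higher (23.1%) and 4 lower (30.9%) at day 3.

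Carbon ions and gamma rays of the same 30 Gy were compared through each beam's change from its own untreated arrays. At day 3 the drop was deeper after carbon ions for 24 of the 31 genes (background 20.2%), with a median difference of -0.36, and no gene differed the other way (0 higher in limma's test, 0 also at an unadjusted p under 0.05, background 15.8%). The median difference was -0.74 in NR-S1, -0.31 in SCCVII, -0.41 in NFSa and -0.07 in #8520. Without NR-S1 14 of the 31 were called (share of all genes not computed). With each tumour as 1 replicate 0 were called in limma's test, where 0 of all genes passed (14 of the 31 lower at an unadjusted p under 0.05, 6.76% of all genes). Tk1 differed most, by -0.68 (SE 0.115, adjusted p = 3.9e-06), with -0.66, -0.62, -0.80 and -0.63 in the order NR-S1, SCCVII, NFSa and #8520.

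The arrays of Tk1 show this contrast. In NR-S1 at day 3 it read 3.15 and 3.17 after carbon ions and 4.40 and 4.69 after gamma rays, from untreated levels of 4.32 and 4.22 and of 5.20 and 4.78. In #8520 it read 3.05 and 2.86 after carbon ions and 3.20 and 3.51 after gamma rays, from 4.57 and 4.83 and from 4.38 and 4.57. Both carbon-ion arrays were below both gamma-ray arrays in these 2 tumours, and the untreated arrays of NR-S1 also differed between the series. Uhrf1 (-0.63, SE 0.0849, adjusted p = 3.0e-08), Cdt1 (-0.60, SE 0.0916, adjusted p = 4.0e-07) and Rfc4 (-0.51, SE 0.0848, adjusted p = 3.2e-06) were the next largest differences. Second probes gave smaller differences at day 3, of -0.49 for Tk1 and -0.48 for Uhrf1. The 7 genes that did not pass were Orc1, Mcm7, Pola2, Rpa2, Lig1, Rrm1 and Ccne1.

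**Figure D5:**
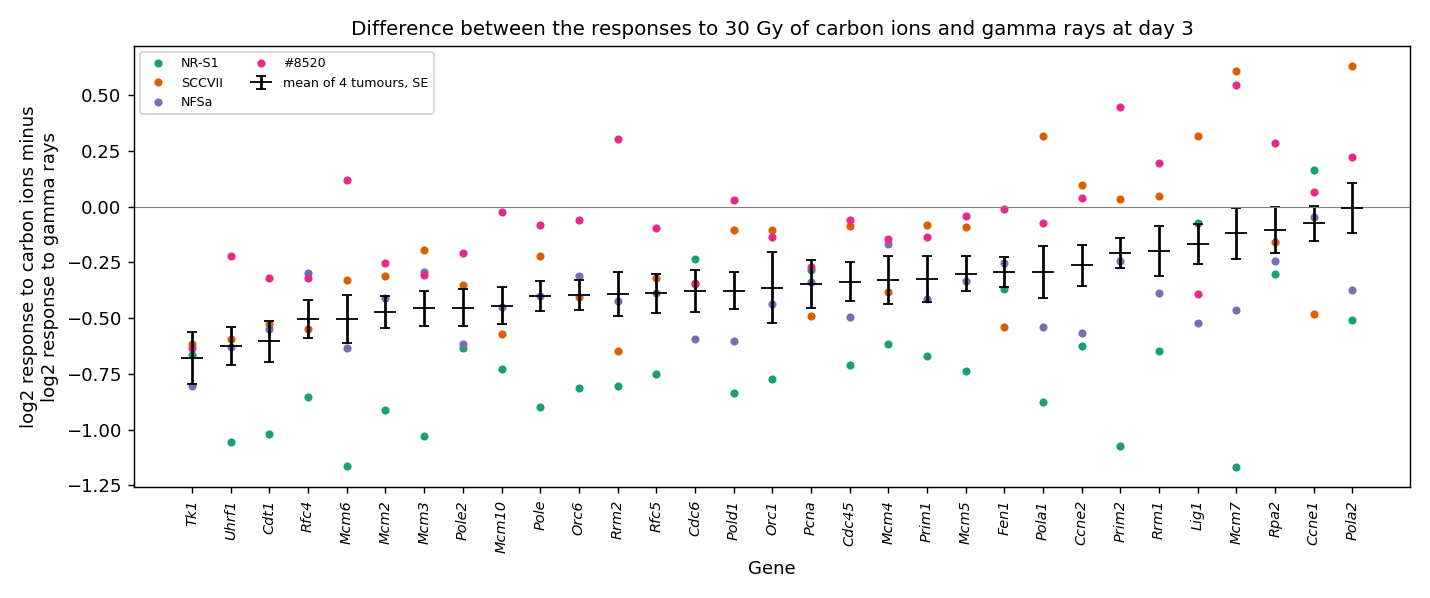
Difference between the log2 change at day 3 after 30 Gy of carbon ions and that after 30 Gy of gamma rays (vertical axis) for each of the 31 replication genes, ordered by the mean (horizontal axis), with coloured points for the 4 tumours and black bars for the mean of 4 tumours with its SE. Tk1 is at the left end with all 4 tumours between -0.80 and -0.62, and NR-S1 gives the lowest point for most genes, with a median of -0.74 against -0.07 in #8520.

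Markers of some other cell types moved with this contrast as well. At day 3 all 13 T and NK cell markers, 12 of 13 macrophage, 9 of 9 neutrophil and 12 of 13 muscle markers had a higher change after carbon ions than after gamma rays. Of all genes 15.8% were called higher in this contrast. The part of these markers in the difference was not tested. The 2 series also have separate untreated arrays, so the beam and the series cannot be told apart.

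At the earlier times the beams differed for few genes. At 6 h 5 of the 31, Mcm2, Pole, Rfc4, Tk1 and Uhrf1, had a deeper drop after carbon ions (background 6.62%) and 0 a shallower one in limma's test (9.28%, 3 at an unadjusted p under 0.05). Tk1 differed by -0.42 (SE 0.115, adjusted p = 0.0082) and Uhrf1 by -0.30 (SE 0.0849, adjusted p = 0.010), a value that became 0.02 after quantile normalization and -0.08 without NR-S1. By their second probes the 6 h differences were -0.24 for Tk1 and -0.09 for Uhrf1. The Rfc4 difference (-0.28) lost its call in 3 of 32 fits with 1 array left out. Mcm7 differed by 0.29 (SE 0.115, adjusted p = 0.078), with -1.26 in NFSa and 1.83 in #8520. The tumour medians were -0.39 in NR-S1, 0.07 in SCCVII, -0.26 in NFSa and 0.29 in #8520, and without NR-S1 1 gene was called (share of all genes not computed). At day 1 Mcm7 (0.46), Prim2 (0.38), Pola1 (0.33) and Ccne1 (0.29) had fallen less after carbon ions (4 genes, background 17.1%), and Tk1 (-0.50), Uhrf1 (-0.32) and Lig1 (-0.26) had fallen more (3 genes, 8.03%). The second probe of Tk1 gave -0.10, and that of Uhrf1, with a value missing on 1 array, gave 0.03, in the other direction. The Pola1 difference was 0.21 without the second untreated SCCVII array of the carbon-ion series and lost its call in 8 of 31 fits with 1 array left out, and that of Lig1 in 8 of 32. The day 1 medians were 0.04, -0.35, -0.23 and 0.40 in the same tumour order. With each tumour as 1 replicate 0 of the 31 passed at either time in limma's test, and 0 of all genes did. At an unadjusted p under 0.05, 1 of the 31 was lower at each time (2.11% and 1.72% of all genes).

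The untreated arrays of the 2 series were not alike for some of these genes, at shares near those of all genes. In the gamma-ray series 7 of the 31 were higher (background 26.6%) and 12 lower (33.7%), with tumour medians of 0.24 in NR-S1, 0.12 in SCCVII, -0.52 in NFSa and 0.01 in #8520. Mcm7 in NFSa read 2.51 and 2.94 untreated in the carbon-ion series and -0.00 and -0.03 in the gamma-ray series. In the other tumours Mcm7 differed by 0.53 in NR-S1, 1.12 in SCCVII and -1.67 in #8520. Rpa2 differed by 1.70, 1.13, -0.59 and -0.03 in the order NR-S1, SCCVII, NFSa and #8520, and Rrm1 by 0.26, -0.00, -1.56 and -0.91. Taking each tumour as 1 replicate, 0 of the 31 passed in limma's test, where 0 of all genes passed (1 of the 31 higher at an unadjusted p under 0.05, 7.82% of all genes). Between untreated tumours 30 of the 31 genes differed (91.3% of all genes did), all but Uhrf1.

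After 50 Gy of gamma rays the drop at 6 h was deeper than after 30 Gy, most of all in #8520. All 31 genes were lower at 6 h (background 26.9%), with a median of -0.69, and the change was deeper for 24 of them (background 16.2%), by a median of -0.25. The difference was -0.50 in #8520, -0.29 in NR-S1, -0.20 in SCCVII and 0.04 in NFSa, and without #8520 12 genes were called (share of all genes not computed). With each tumour as 1 replicate 0 passed in limma's test, both for this difference (13 lower at an unadjusted p under 0.05, 5.17% of all genes) and for the changes from untreated. Of all genes 0 passed for the difference, and 4, 3 and 5 for the changes at 6 h, day 1 and day 3. For these changes, 21 of the 31 were lower at an unadjusted p under 0.05 at 6 h (7.07%), 14 at day 1 (9.58%) and 30 at day 3 (15.8%). The F test of a tumour difference passed for 30 of the 31 at 6 h (59.6% of all genes), 29 at day 1 (76.5%) and 26 at day 3 (77%). Tk1 differed most, by -0.44 (SE 0.0815, adjusted p = 2.4e-05), then Mcm10 (-0.39), Rfc5 (-0.39) and Rrm2 (-0.37). From untreated, Mcm7 fell by 1.12, Ccne2 fell by 1.01, Mcm2 fell by 1.00 and Ccne1 fell by 0.93, the largest changes. Tumour medians were -0.30 in NR-S1 (16 lower, background 14.6%), -0.73 in SCCVII (27 lower, 9.71%), -0.20 in NFSa (8 lower, 10.9%) and -1.52 in #8520 (30 lower, 37.5%).

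At day 1 and day 3 after 50 Gy, 30 (background 45.1%) and 31 (44.7%) of the 31 genes were lower, with medians of -0.60 and -1.01, but the arrays of SCCVII and #8520 at these points are the 8 with the raised low end. Over NR-S1 and NFSa alone 12 genes were called at day 1 (share of all genes not computed). The medians in those 2 tumours were -0.11 in NR-S1 (5 lower, 13.2%, and 2 higher, 10.5%) and -0.29 in NFSa (12 lower, 9.13%) at day 1, and -0.38 (19 lower, 21.7%) and -1.07 (29 lower, 15.8%) at day 3. In SCCVII and #8520 they were -0.51 (22 lower, 46.9%) and -1.52 (31 lower, 44.1%) at day 1 and -0.94 (29 lower, 48.1%) and -1.46 (31 lower, 39.9%) at day 3. Uhrf1 had the largest change, -1.38 at day 1 and -2.13 at day 3, but over NR-S1 and NFSa alone it read -0.11 (adjusted p = 0.35) at day 1 and -1.04 at day 3. On the day 3 arrays it read 5.45 and 5.41 in NR-S1, 2.90 and 3.03 in SCCVII, 3.98 and 4.15 in NFSa, and 2.18 and 2.46 in #8520. The 4 arrays with a raised low end read lowest. A second probe of Uhrf1 gave -0.57 at day 1 and -1.49 at day 3.

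The step from 30 to 50 Gy at these times depended on the same arrays. At day 1 21 of the 31 genes were lower after 50 Gy than after 30 Gy (background 43.1%) and 4 higher (19.6%), and at day 3 20 lower (35.5%) and 2 higher (23.9%). Over NR-S1 and NFSa alone 1 gene was called lower at day 1 and 5 at day 3 (shares of all genes not computed). Uhrf1 differed by -1.19 and -1.29, with -0.01 and -0.16 in NR-S1 and -0.20 and -0.39 in NFSa, and by -0.08 and -0.29 with its second probe. The genes called higher, Mcm7 (0.50), Prim2 (0.25), Ccne2 (0.23) and Rrm1 (0.18) at day 1 and Mcm7 (0.26) and Rrm1 (0.20) at day 3, all had negative differences over NR-S1 and NFSa alone, of -0.23, -0.07, -0.17 and -0.15 at day 1 and -0.34 and -0.25 at day 3. With 1 array left out the Rrm1 call was lost in 10 of 16 fits at day 1, where the value was 0.09 without NFSa 30 Gy day 1 replicate 3, and in 6 of 16 at day 3. With each tumour as 1 replicate 0 of the 31 passed at either time in limma's test, and 0 of all genes did (5 and 7 of the 31 lower at an unadjusted p under 0.05, 6.46% and 5.11% of all genes).

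The changes were also set beside the promoter letters. The 10 tested genes with the letters had a median of -0.57 at 6 h after carbon ions, -0.37 at day 1 and -1.24 at day 3, and the 17 tested genes with a window but without them had -0.40, -0.33 and -1.12. After 30 Gy of gamma rays the medians were -0.53, -0.29 and -0.84 with the letters and -0.37, -0.37 and -0.79 without. These medians are a description, with no test. Mcm2, Cdc6, Tk1 and Rfc4, among the most changed genes at 6 h or day 3 after carbon ions, had no match in the window, and Lig1, the least changed at day 3, had a match.

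Other genes of replication and its control moved the same way, with smaller medians. Of 84 such genes on a list 76 were tested, and 51 were lower and 6 higher at 6 h after carbon ions (median -0.28), 32 and 3 at day 1 (-0.12) and 65 and 4 at day 3 (-0.64). Of all genes 19.5%, 16.6% and 41.8% were lower and 21%, 25.5% and 26.4% higher at these times. After 30 Gy of gamma rays 38, 42 and 57 were lower (57 of 75 tested at day 3), where 18.4%, 21.7% and 30.9% of all genes were. At day 3 after carbon ions, where 41.8% of all genes were lower, so were 14 of 15 other origin and helicase genes (median -0.85) and 18 of 19 polymerase and fork genes (-0.56). The same held for 19 of 24 nucleotide genes (-0.68) and 14 of 18 genes of the E2F, RB and S phase kinase group (-0.55). The difference between these genes and the 31 was not tested.

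The largest of these changes at day 3 after carbon ions were those of E2f7, an E2F repressor (-1.98, adjusted p = 1.1e-27), Ccna2, the S phase cyclin A2 (-1.65, adjusted p = 1.0e-30), and Asf1b, a histone chaperone (-1.54). At 6 h Ccna2 (-0.91) and Chaf1b, a subunit of the chromatin assembly factor (-0.86), led the falls, and at day 1 Dna2, a nuclease of fragment processing (-0.86), and Chaf1b (-0.73). E2f1, the activator that drives many of these promoters, fell by 0.57, 0.27 and 0.61 at the 3 times after carbon ions and by 0.40, 0.18 and 0.38 after 30 Gy of gamma rays. Cdkn1a, the p21 inhibitor of cyclin-dependent kinases, rose at every time, with a positive change in each of the 4 tumours, by 1.27, 1.13 and 1.14 after carbon ions and by 1.11, 0.95 and 1.14 after 30 Gy of gamma rays. Samhd1, which breaks down deoxynucleotides and is abundant in myeloid cells, read -0.23 at 6 h and -0.15 (adjusted p = 0.071) at day 1 and rose by 1.23 at day 3 (adjusted p = 1.0e-22), where the macrophage markers were also higher.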

How the data were processed

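The deposited values are intensities of 36227 probes on 88 CodeLink arrays with Cy5 label, per the labels 1 colour; they are linear, scaled to a median near 1 on each array, the lowest being -0.271. How the scan was corrected and scaled is not given in the sources used here. Values at or below 0 (0.150%) and missing values (0.751%) were left out and the rest taken as log2. A single gene symbol was paired with 21615 probes through the platform annotation, 681 had several and 13931 none, and 21487 symbols were updated by Entrez number. The brightest probe stood for a gene. Genes in the dimmest 25%, or with values on under 80% of arrays, were left out, which kept 13465 of 18069 genes.

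limma 3.58.1 in R 4.3.3 fitted a mean for each of 44 groups with 44 residual degrees of freedom, and changes were averaged over the 4 tumours. p-values were adjusted by Benjamini-Hochberg over all genes tested, with a threshold of 0.05, and tumour differences had a moderated F test of 3 contrasts. The code was checked on simulated data.

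Gene names follow a rule: in each comparison the 4 of the 36 with the largest change and any that passed against the majority, array by array the gene of each role with the largest mean change after carbon ions, for tumour differences the 3 largest F, and of other replication genes the 3 largest changes with E2f1 and Cdkn1a. Others that are named complete a role or a count of 10 or fewer, and Samhd1 and Krt5 were chosen after their values were seen. The 36 genes, the lists and the tests were chosen with earlier results of these data known. The alternatives were quantile normalization, other probe and dimness rules, offsets, left-out tumours and arrays, a replicate block and each tumour as 1 replicate.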

Additional observations from a re-analysis of the deposited data

Results flagged for a closer look

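A moderated F test of the difference between the 4 tumours passed for some of the 31 tested genes in each of the 9 irradiated conditions, as it did for many genes of the array. After 30 Gy of carbon ions the test passed for 13 genes at 6 h (45% of all genes), 25 at day 1 (58.3%) and 29 at day 3 (61.9%), so the share at 6 h was not above that of all genes. After 30 Gy of gamma rays it passed for 23 (36.9%), 30 (52.4%) and 29 (56%). After 50 Gy it passed for 30 (59.6%), 29 (76.5%) and 26, near the 77% of all genes, where SCCVII and #8520 have arrays with a raised low end at the later times. The genes with the largest F after carbon ions were Prim2 (18.6), Mcm7 (15.9) and Ccne2 (13.4) at 6 h, Mcm7 (82.7), Ccne2 (81.7) and Prim2 (52.0) at day 1, and Ccne1 (40.5), Mcm5 (36.4) and Pole (36.3) at day 3. Mcm7, Ccne2 and Prim2 also differed between the untreated arrays of the 2 series, Mcm7 by -2.75 in NFSa, and the part of this in the differences between tumours was not tested.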

How the results depend on the processing

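Counts are of the 31 genes called. For fits with tumours or arrays left out, or with other processing, the share of all genes called was not computed. A lower count there can therefore not be told apart from fewer calls over the whole array. With each tumour as 1 replicate the changes after carbon ions kept 9 calls at 6 h, 0 at day 1 and 28 at day 3. The day 1 to day 3 step kept 7, and every other change, beam, dose, time and series difference had 0 in limma's test. Where the count was 0, few genes of the whole array passed. After gamma rays 11, 8 and 61 of all genes did at 30 Gy and 4, 3 and 5 at 50 Gy, in order of time. Each beam, dose and series difference had 0, so a count of 0 does not set the 31 apart from the other genes. Without NR-S1 the beam difference had 1 call at 6 h and 14 at day 3, and the step from 6 h to day 1 had 6 after carbon ions and 5 after gamma rays. Without SCCVII the dose difference at day 3 had 12, and the gamma-ray day 1 to day 3 step of Ccne1 turned to -0.0596. Without NFSa the beam difference at 6 h had 8 calls. Without #8520 it had 3, gamma rays at 30 Gy had 19 at 6 h and 9 at day 1, and the dose difference at 6 h had 12. The dose difference then turned for Mcm7 (-0.0122), Prim2 (-0.00962), Rrm1 (-0.0466) and Ccne2 (-0.00313) at day 1 and for Mcm7 (-0.14) and Rrm1 (-0.0222) at day 3.

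Over NR-S1 and NFSa alone 50 Gy had 12 calls at day 1, and the dose difference had 1 at day 1 and 5 at day 3. There Pold1 turned to 0.0533 at day 1 after 50 Gy and to 0.0448 in the dose difference, in which Mcm7 (-0.23), Prim2 (-0.0671), Rrm1 (-0.15) and Ccne2 (-0.17) turned at day 1 and Mcm7 (-0.34) and Rrm1 (-0.25) at day 3. After quantile normalization the dose difference at day 3 had 13 calls, the beam difference of Uhrf1 at 6 h turned to 0.0201 and the dose difference of Rrm1 to -0.46 at day 1 and -0.72 at day 3. With the mean of all probes the series difference of Cdc6 turned to -0.18. The cause was not tested. Leaving out 1 array at a time moved the count beyond 1.5 times only for the gamma-ray step from 6 h to day 1, from 6 to 10 calls, lowest without NFSa 30 Gy 6 h replicate 2 or #8520 30 Gy 6 h replicate 1.

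Replicate numbers of 28 pairs of groups correlated at -0.193 to 0.390, 7 of them over 0.1, so the numbers were not taken as pairs. A fit with the replicate number as a block gave 31, 29 and 31 calls after carbon ions and moved no count beyond 1.5 times; gamma-ray day 1 changes share no replicate numbers with their untreated arrays and had no such fit. The 2 arrays per group and the dim probes limit the precision.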

Other observations

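Second probes of 4 of the genes gave other sizes at several points. After 30 Gy of gamma rays the second probe of Tk1 gave -0.46 at 6 h and -0.58 at day 1, where the first gave -0.27 and -0.27, and that of Uhrf1 gave -0.86 and -0.49 against -0.53 and -0.19. The sizes also differed at day 1 and day 3 after 50 Gy. At these 2 points the dim second probe of Cdc6 (mean log2 intensity -3.25) differed from untreated by 1.17 and 0.79 where the bright one gave -0.80 and -1.16. The second probe of Pole2 gave -0.49 and -1.12 against -0.97 and -1.47, and by that of Tk1 the RNA fell by 1.00 and 1.60, where by the first it fell by 0.57 and 1.00. Gins2, which was too dim for the tests, differed by 0.75 and 0.47 at these points. On the day 1 arrays after 50 Gy it read -0.66 and -0.88 in SCCVII and -0.77 and -0.92 in #8520. In NR-S1 it read -2.47 and -2.88 there, and in NFSa -2.82 and -2.49. Its untreated arrays of the gamma-ray series ran from -2.85 to -2.15. After carbon ions Gins2 differed by -0.55, -0.43 and -0.82. Rpa1, with values on 41 of 88 arrays, differed by -0.55, -0.32 and -0.89 after carbon ions at 6 h, day 1 and day 3.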
